A study of Homo sapiens with 6 samples.

Results

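The MYC, MAX and MXD network was followed in Huh7, a human line established from hepatocellular carcinoma, on 6 one-colour oligonucleotide arrays. The control group was Huh7 cells labelled control (3 arrays), and the other was Huh7 cells labelled as KCa3.1 knockdown (3 arrays, called silenced here). All cells were in logarithmic growth and their medium was renewed the day before RNA was taken. Neither the silencing agent nor its time is given in the labels, nothing says whether the silenced cells were 1 clone, and nothing says that replicates came from separate cultures. The p-values therefore measure the spread between these arrays, which may be technical. The network was taken as 10 genes, namely MYC, MYCN, MYCL, MAX, MXD1, MXD3, MXD4, MXI1, MNT and MGA. All 10 were measured, among 18132 genes, by 41 of the 44988 probe sets that carry a single gene symbol.

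MYC, MYCN and MYCL are transcription factors of the basic helix-loop-helix leucine zipper class that bind DNA only as partners of MAX, at the E-box sequence CACGTG and its variants. As such pairs they raise genes of growth, ribosome building and nucleotide synthesis. The MXD proteins (MXD1, MXD3, MXD4 and MXI1, which is also called MXD2) and MNT compete for MAX, bind the same sites and recruit the SIN3 corepressor. MGA also pairs with MAX and belongs to a Polycomb complex. In liver, MYC is a known driver of hepatocellular carcinoma.

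Values are log2 RMA values relative to a baseline of each probe set, so differences between arrays can be read but the level of a gene cannot. The baseline is not stated and is not the median of these 6 arrays. For example, probe set 11730498_s_at of MXI1 had -0.316, -0.171, -0.284, 0, 0 and -0.001, most of them below 0. The sign of a single array's value therefore has no meaning of its own. No gene can therefore be called more abundant than another, and the cell type cannot be checked by levels. KCNN4, which encodes KCa3.1, was not lower in the silenced arrays, with a difference of -0.00033 and a 95% interval of -0.16 to 0.16 (limma adjusted p = 0.999, two-sided exact permutation p = 1 against a smallest possible 0.1). All 3 of its probe sets have names ending in _x_at, not the plain _at of a design for a single transcript. Whether they measure KCNN4 alone was not tested. All directions below are thus between arrays as labelled. Over probe sets, r between any pair of arrays was 0.406 to 0.67 within a label and -0.273 to 0.0676 across labels. These r are on the baseline-relative values, from which the level of each probe set shared by all arrays is removed. A low or negative r across labels therefore does not measure how unlike the cells are. Of 9 measured hepatocyte and hepatoma markers 6 were higher and 0 lower in silenced arrays, of 5 leukocyte markers 1 was higher (LYZ) and 0 lower, and of 8 endothelial and stromal markers 0 passed the test in either direction (limma, adjusted p under 0.05). By the same test 7.14% of all genes were higher and 6.19% lower. The part of these markers in the results below was not tested.

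Of the 10 network genes 2 were higher in silenced arrays, 0 were lower and 8 did not pass the test. MXD4 rose 1.42-fold and MYC 1.22-fold. Over all genes 13.3% were called, 7.14% higher and 6.19% lower, so a share of 2 in 10 is close to the background. The median change of the 10 genes was 0.08 on the log2 scale, against -0.0058 for all genes, and 7 of the 10 differences were above 0. The 3 values of one label lay wholly apart from the 3 of the other in 4 of the 10 genes (MYC, MXD1, MXD4 and MXI1), each with the silenced arrays above, while 29.3% of all genes were without overlap.

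**Figure D1:**
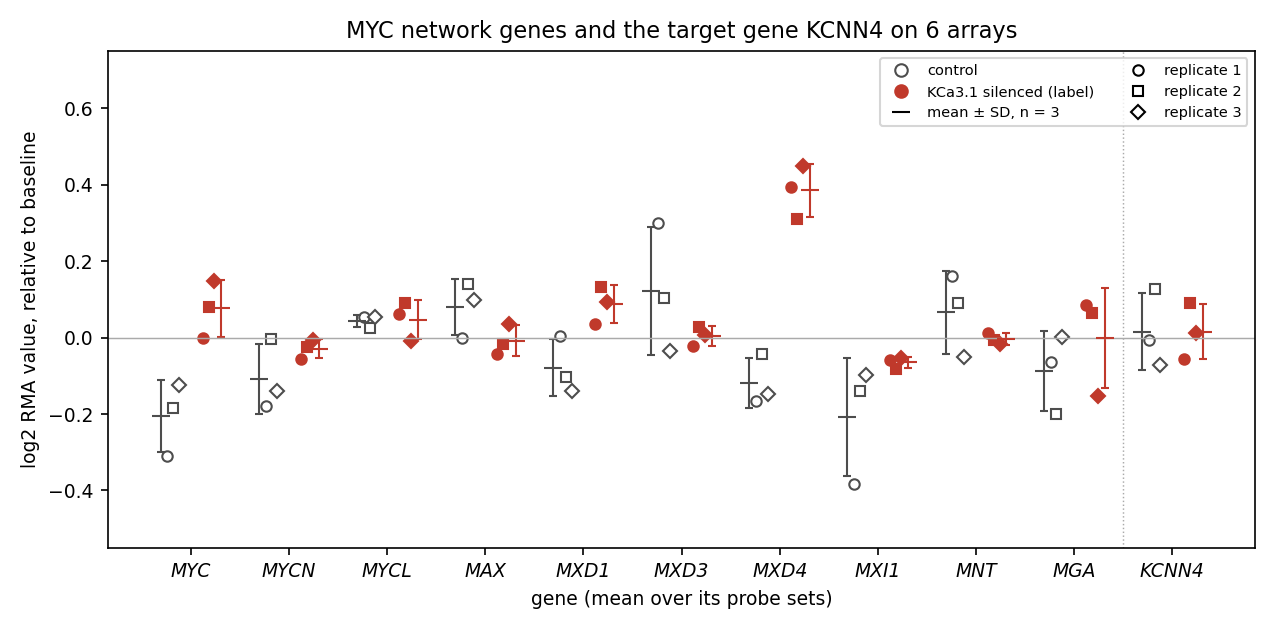
Log2 RMA value relative to each probe set's baseline (vertical axis) of each network gene and of KCNN4 on every array, as the mean over the gene's probe sets. Open grey symbols are control arrays, filled red symbols silenced arrays, the symbol shape gives the replicate number, and bars give mean ± SD (n = 3); the 3 silenced values of MXD4 (0.311 to 0.449) lie clear of its control values (-0.166 to -0.043), while most other genes overlap or nearly touch.

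MXD4, a MAX partner and repressor of the MXD group, showed the largest change of the network. Its gene values were -0.166, -0.043 and -0.148 in control replicates 1, 2 and 3, and 0.394, 0.311 and 0.449 in the silenced replicates. All silenced arrays were above all control arrays, and the gap between the groups was wider than the spread within either. The group means were -0.119 ± 0.0665 in control and 0.385 ± 0.0691 in silenced arrays (SD, n = 3 each). The change was 0.50 on the log2 scale (SE 0.062, 95% interval 0.36 to 0.64, limma adjusted p = 0.00083). The gene passed the test under all 15 alternative settings, with changes of 0.461 to 0.735, including each of the 6 fits that left out 1 array.

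The probe sets of MXD4 did not all move. Of its 5 probe sets 4 rose, and over all probe sets 10.7% were called, 5.82% higher and 4.85% lower. Probe set 11754299_a_at had -0.119, 0.048 and -0.066 in control and 0.762, 0.473 and 0.833 in silenced arrays, a change of 0.73 (SE 0.101, limma adjusted p = 0.0025). Silenced replicate 2 was the lowest of the 3 on this probe set, on 11736489_a_at (0.79, 0.46 and 0.773) and in the gene mean, but not on 11747171_a_at (0.406, 0.468 and 0.562). Probe sets 11736489_a_at and 11747171_a_at changed by 0.67 and 0.62. Probe set 11763312_at, whose name ending marks it as designed for a single transcript, had -0.478, -0.353 and -0.487 in control and 0.011, 0.024 and 0.03 in silenced arrays, a change of 0.46 (limma adjusted p = 0.0027). The remaining one, 11736488_a_at, gave 0.09, -0.011 and 0.004 against 0, 0.131 and 0.046, overlapping groups with a difference of 0.03 (95% interval -0.12 to 0.19, limma adjusted p = 0.85). The upper end of that interval lies below the lower end for each of the other 4 probe sets.

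Windows at the network genes were read for the network's own binding sequence, as 250 bases upstream of RefSeq transcript starts (GRCh38.p14). The search for member windows left out the chromosome of MYC, so 9 of the 10 members were read, with 14 windows. The count over the windows of all genes kept that chromosome. The windows need not cover every start of a gene. The MAX window at chr14:65102284-65102533, on the minus strand, holds the start of the MAX coding sequence. The other MAX window (chr14:65101685-65101934) lies downstream of it. Bases further upstream of MAX were thus not read. CACGTG, which reads the same on both strands, was in 2 of the 14 windows, those of MXD4 and MNT, and in 6.34% of the 35116 windows of all genes. The variant CACGCG, searched on both strands, was in 1 member window, of MGA, and in 9.72% of all. The first of the windows below belongs to the gene with the largest change and the other to MNT, the gene that holds the same letters and did not pass the test. Capitals mark CACGTG, which begins 238 bases before the start of MXD4 and 193 bases before that of MNT. They are chr4:2262110-2262359 and chr17:2401061-2401310, both on the minus strand and printed 5′ to 3′.
MXD4: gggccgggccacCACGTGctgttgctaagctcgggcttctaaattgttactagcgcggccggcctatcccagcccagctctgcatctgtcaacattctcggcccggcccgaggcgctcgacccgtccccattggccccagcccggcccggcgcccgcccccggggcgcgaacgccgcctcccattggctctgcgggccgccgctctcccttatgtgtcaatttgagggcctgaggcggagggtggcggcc
MNT: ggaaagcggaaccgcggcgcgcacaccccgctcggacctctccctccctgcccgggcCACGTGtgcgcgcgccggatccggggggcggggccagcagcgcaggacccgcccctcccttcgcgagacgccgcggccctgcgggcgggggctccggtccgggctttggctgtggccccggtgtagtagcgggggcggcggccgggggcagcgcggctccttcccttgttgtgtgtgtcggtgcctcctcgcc

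MYC, the founding activator of the network, was measured by 1 probe set, 11745021_a_at. Its values were -0.309, -0.184 and -0.124 in control and 0, 0.08 and 0.149 in silenced arrays. The groups did not overlap, and the distance from the highest control to the lowest silenced array was smaller than the range within either group. The means were -0.205 ± 0.0944 and 0.0763 ± 0.0747 (SD, n = 3 each). The change was 0.28 on the log2 scale (SE 0.068, 95% interval 0.13 to 0.44, limma adjusted p = 0.026 among genes). Among probe sets, where the same 6 values met a larger family of tests and another estimate of the common variance, its limma adjusted p was 0.048. That call among probe sets was kept in 2 of 12 alternatives and in 0 of the 6 fits that left out 1 array (adjusted p up to 0.17). The call among genes was lost without control replicate 1 (change 0.23, adjusted p = 0.064), control replicate 2 (0.293, 0.065), silenced replicate 2 (0.28, 0.076) or silenced replicate 3 (0.245, 0.1). Reading each gene from its most variable probe set also ended it (limma adjusted p = 0.066). The 6 values of MYC are the same in that setting, and only those of other genes differ. The direction of MYC was the same in all 15 alternatives, but several of them could not turn it. With 1 probe set, its values are unchanged by the probe set summaries and by leaving out tied probe sets. The robust variance estimate and the replicate block keep the change of every gene.

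The genes whose 6 values lay closest to those of MYC, by root mean square distance over the arrays, were CSNK1G1 (distance 0.0409), SMIM14 (0.0443) and MTSS1 (0.0444). CSNK1G1 had -0.279, -0.186 and -0.157 in control and 0.076, 0.09 and 0.102 in silenced arrays. The distance also depends on the unstated baselines, so a gene with the same changes from another baseline would be missed.

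The MYC relatives did not pass the test. MYCN, the form known from the nervous system and neuroblastoma, had -0.179, -0.005 and -0.141 in control and -0.056, -0.026 and -0.007 in silenced arrays. Control replicate 2 lay just above all silenced arrays and the other control arrays lay below them, so the groups overlapped. The difference was 0.08 (95% interval -0.06 to 0.22, limma adjusted p = 0.52). Of its 4 probe sets 3 differed upward and 1 downward, from -0.11 to 0.19, and 0 were called. MYCL, first found in lung cancer, had a difference of 0.0024 (95% interval -0.12 to 0.12, limma adjusted p = 0.99). Its 4 probe sets gave differences from -0.06 to 0.16, and the sign of the gene mean turned in 8 of the 15 alternatives, where it lay between -0.0188 and 0.0308.

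MAX, the partner shared by the other members, did not pass the test. Its gene values were 0, 0.141 and 0.098 in control and -0.043, -0.018 and 0.036 in silenced arrays. Control replicate 1 lay inside the silenced range. The difference was -0.09 (SE 0.059, 95% interval -0.22 to 0.05, limma adjusted p = 0.43). With 12 probe sets MAX was the most heavily covered member, and 9 of the 12 differences were below 0. They ranged from -0.28 to 0.10, and 0 passed. The nearest was 11733721_s_at, with 0.086, 0.199 and 0.222 in control against 0, -0.17 and -0.155 in silenced arrays, groups that did not overlap. Its change was -0.28 (SE 0.0745, limma adjusted p = 0.0501), just outside the threshold. It passed without control replicate 1 (-0.319), without silenced replicate 1 (-0.332), with array weights (-0.307) and with tied probe sets left out (-0.277).

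**Figure D2:**
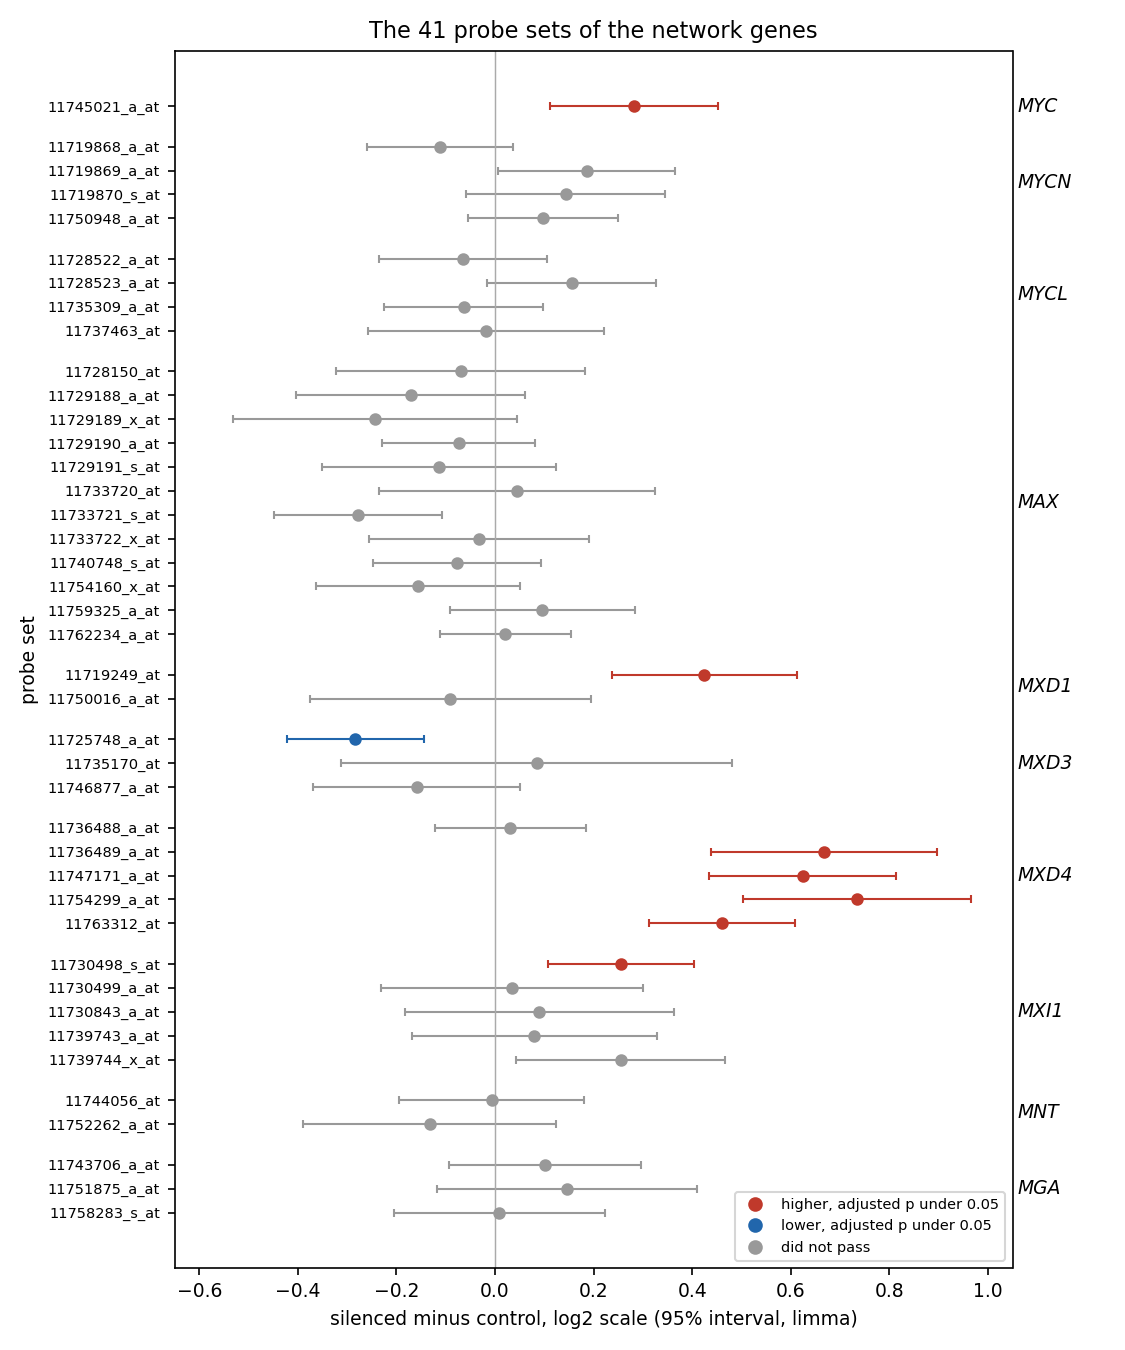
Difference of silenced minus control on the log2 scale (horizontal axis) with its 95% interval from limma for each of the 41 probe sets, grouped by gene. Red marks the 7 probe sets that were higher and blue the 1 that was lower at an adjusted p under 0.05; 4 of the red points belong to MXD4, while all 12 points of MAX are grey.

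Over the whole network 7 of 41 probe sets were higher, 1 was lower and 33 did not pass, beside the 10.7% called among all. In 14 of the 41 the groups did not overlap, against 26.7% of all probe sets. The called ones outside MXD4 and MYC were single probe sets of MXD1, MXI1 and MXD3, whose other probe sets did not pass.

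MXD1, the first described MAX-binding antagonist of MYC and linked to terminal differentiation, had gene values of 0.004, -0.104 and -0.139 in control and 0.036, 0.133 and 0.093 in silenced arrays. The groups were apart by a narrow margin, between control replicate 1 and silenced replicate 1. The difference of 0.17 (SE 0.060, 95% interval 0.03 to 0.30) did not pass the test (limma adjusted p = 0.12). Its 2 probe sets went opposite ways. Probe set 11719249_at rose from -0.307, -0.293 and -0.082 to 0.212, 0.266 and 0.115, a change of 0.42 (SE 0.082, limma adjusted p = 0.013), and lost the call without control replicate 2 (0.392) or silenced replicate 2 (0.39). Probe set 11750016_a_at had 0.315, 0.086 and -0.196 against -0.14, 0 and 0.072, a wide control spread and a difference of -0.09 (limma adjusted p = 0.75). The gene passed where it was read from 11719249_at, that is with the most variable or the specific probe set (change 0.425, limma adjusted p = 0.014 and 0.0091), and with array weights (0.188, adjusted p = 0.046).

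MXI1, an antagonist that also recruits SIN3, had -0.383, -0.141 and -0.099 in control and -0.06, -0.081 and -0.053 in silenced arrays. The groups were apart only by the gap between -0.099 and -0.081, and control replicate 1 stood far below the rest. The difference of 0.14 (SE 0.078, 95% interval -0.03 to 0.32) did not pass (limma adjusted p = 0.31). Without control replicate 1 it was 0.0554. All 5 probe sets differed upward, from 0.03 to 0.26. Of these 11730498_s_at was called, with -0.316, -0.171 and -0.284 in control and 0, 0 and -0.001 in silenced arrays (change 0.26, limma adjusted p = 0.04). The near-tied silenced values are at the baseline of the deposited table, where ties narrow the spread. Leaving out any array except control replicate 2 ended its call (0.227 to 0.257), as did quantile normalization (0.239, adjusted p = 0.061).

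MXD3, an MXD member known to be expressed in dividing cells, had 0.299, 0.103 and -0.034 in control and -0.023, 0.028 and 0.007 in silenced arrays. The control arrays spread widely and took in the whole silenced range. The difference was -0.12 (95% interval -0.31 to 0.07, limma adjusted p = 0.45), and it was -0.0312 without control replicate 1. Of its 3 probe sets 11725748_a_at was lower, from 0.234, 0.332 and 0.27 to -0.02, 0.005 and 0, the network's only called fall. Its change was -0.28 (SE 0.061, limma adjusted p = 0.02), and the call was kept without control replicate 1 (-0.306) but lost without any other single array (-0.289 to -0.257). The other probe sets of MXD3 gave 0.08 and -0.16 and did not pass. With 11735170_at alone, whose control values ran from -0.464 to 0.346, the sign of the gene was turned (0.0845).

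MNT, the broadly expressed antagonist of MYC, had 0.162, 0.089 and -0.052 in control and 0.012, -0.006 and -0.017 in silenced arrays. Its groups overlapped, with silenced values inside the control range, and the difference was -0.07 (95% interval -0.22 to 0.08, limma adjusted p = 0.61). Both probe sets differed downward, by -0.13 and -0.01. MGA, the large factor that also carries a T-box DNA-binding domain, had -0.064, -0.201 and 0.002 in control and 0.084, 0.063 and -0.153 in silenced arrays. Silenced replicate 3 lay among the control arrays, and the difference was 0.09 (95% interval -0.10 to 0.27, limma adjusted p = 0.62). Its 3 probe sets gave 0.10, 0.15 and 0.01.

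**Figure D3:**
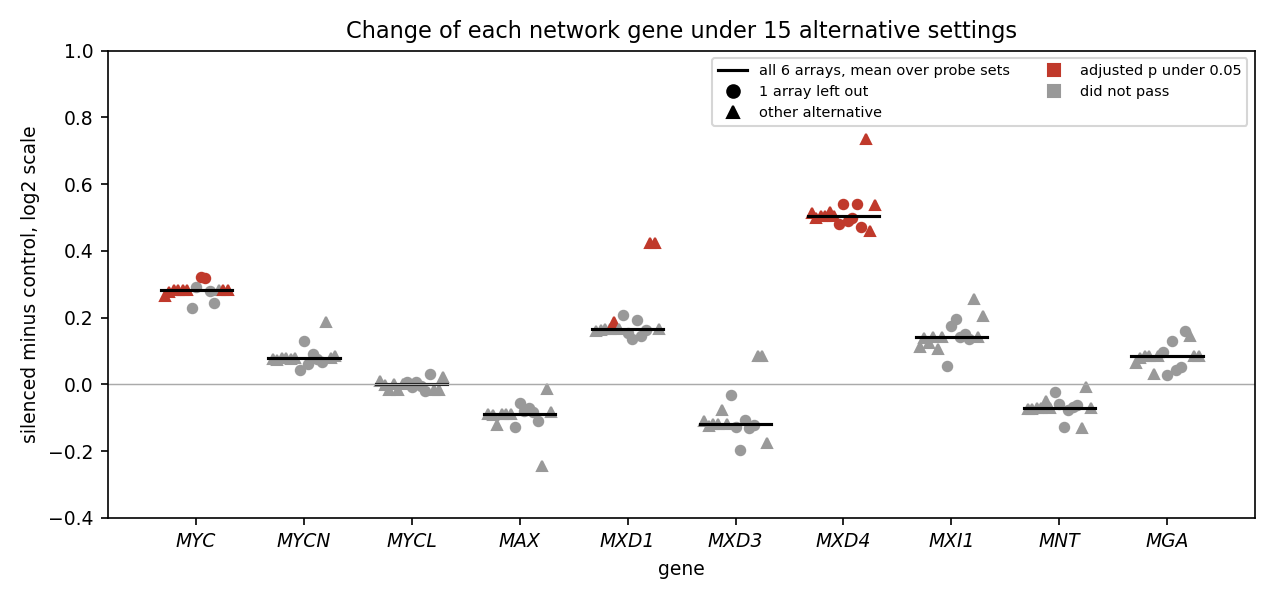
Silenced minus control difference on the log2 scale (vertical axis) of each network gene under the 15 alternative settings. Black lines give the value with all 6 arrays and the mean over probe sets, circles leave out 1 array, triangles are other settings, and red marks an adjusted p under 0.05; MXD4 is red throughout, MYC in 10 of 15 and MXD1 in 3 of 15.

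The rest of the pathway was read from 7 lists of partners, regulators and targets, of whose 150 genes 140 could be read (the remaining 10 were not used here). Of the 140 genes 18 were higher, 13 lower and 109 did not pass, which is 22.1% called beside 13.3% of all genes. The lists were chosen with earlier results of these data known, so the higher share cannot be read as enrichment. The median change of the 140 was 0.0166 on the log2 scale. Called genes were found in 5 of the 7 lists.

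MLX, MLXIP and MLXIPL form the sister branch, in which MLX replaces MAX and can also pair with MXD1, MXD4 and MNT. Of these 3 genes 0 passed by limma and 1, MLXIP, had an unadjusted p under 0.05 (0.042), as 24.6% of all genes did. The differences of MLX, MLXIP and MLXIPL were 0.09, 0.12 and 0.07. Of the 12 measured genes of SIN3 and its corepressor complex, which the MXD proteins recruit, 1 was higher, 0 lower and 11 did not pass. Among all genes 13.3% were called. SIN3B, a scaffold of that complex, rose by 0.20 (limma adjusted p = 0.036), with 1 of its 6 probe sets called. That call was lost without any 1 of the 6 arrays (0.177 to 0.218) and with the median over its probe sets (0.165, adjusted p = 0.091) or specific probe sets (0.0569, adjusted p = 0.73).

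Of 15 measured cofactors through which MYC acts on chromatin, 1 was higher, 1 lower and 13 did not pass, beside 13.3% called among all genes. ACTL6A, an actin-related subunit of chromatin remodelling and histone acetylation complexes, fell by 0.81 on the log2 scale. It had 0.043, 0.144 and 0.187 in control and -0.695, -0.686 and -0.675 in silenced arrays on 1 probe set (SE 0.057, limma adjusted p = 4e-05). RUVBL1, an ATPase found in the same kind of complexes, rose by 0.22 (limma adjusted p = 0.029). Its call was lost without any 1 array except control replicate 2 (0.19 to 0.232), and with the most variable probe set (0.235, adjusted p = 0.09).

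Genes that set the lifetime of the MYC protein moved in both directions, with 3 of 13 measured genes higher, 2 lower and 8 that did not pass. The shares among all genes were 7.14% higher and 6.19% lower. SKP2, an F-box protein that ubiquitinates MYC, had 0.076, 0.055 and 0.203 in control and -0.465, -0.546 and -0.367 in silenced arrays, all below control. FBXW7, the F-box protein that marks phosphorylated MYC for degradation, rose by 0.25 (limma adjusted p = 0.029). PPP2R5A, a regulatory subunit of the phosphatase that acts on MYC, had -0.689, -0.648 and -0.465 in control and 0.002, -0.028 and -0.054 in silenced arrays. Its change was 0.57 (SE 0.069, limma adjusted p = 0.00072), with both of its probe sets higher. GSK3B, the kinase that prepares MYC for FBXW7, rose by 0.23 (limma adjusted p = 0.021), and SET, an inhibitor of that phosphatase, fell by 0.23 (limma adjusted p = 0.019). SKP2 and PPP2R5A passed in every one of the 15 alternatives. The calls of the other 3 were lost in several alternatives. FBXW7 passed without control replicate 3, and leaving out any other array ended its call (0.201 to 0.26), as did leaving out tied probe sets (0.222). GSK3B was lost without control replicate 2 and silenced replicates 1 and 3 (0.215 to 0.231). SET was lost without control replicates 2 and 3 and silenced replicates 1 and 3 (-0.227 to -0.21).

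Of the 8 measured partners of MGA in its Polycomb complex 0 passed in either direction by limma, beside 13.3% called among all genes. Unadjusted p-values under 0.05 were found for 4 of the 8, beside 24.6% of all genes. YAF2 and CBX3 differed by -0.20 and -0.32 (limma adjusted p = 0.053 and 0.065), and RYBP and PCGF6 by 0.16 and 0.17 (0.11 and 0.16).

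**Figure D4:**
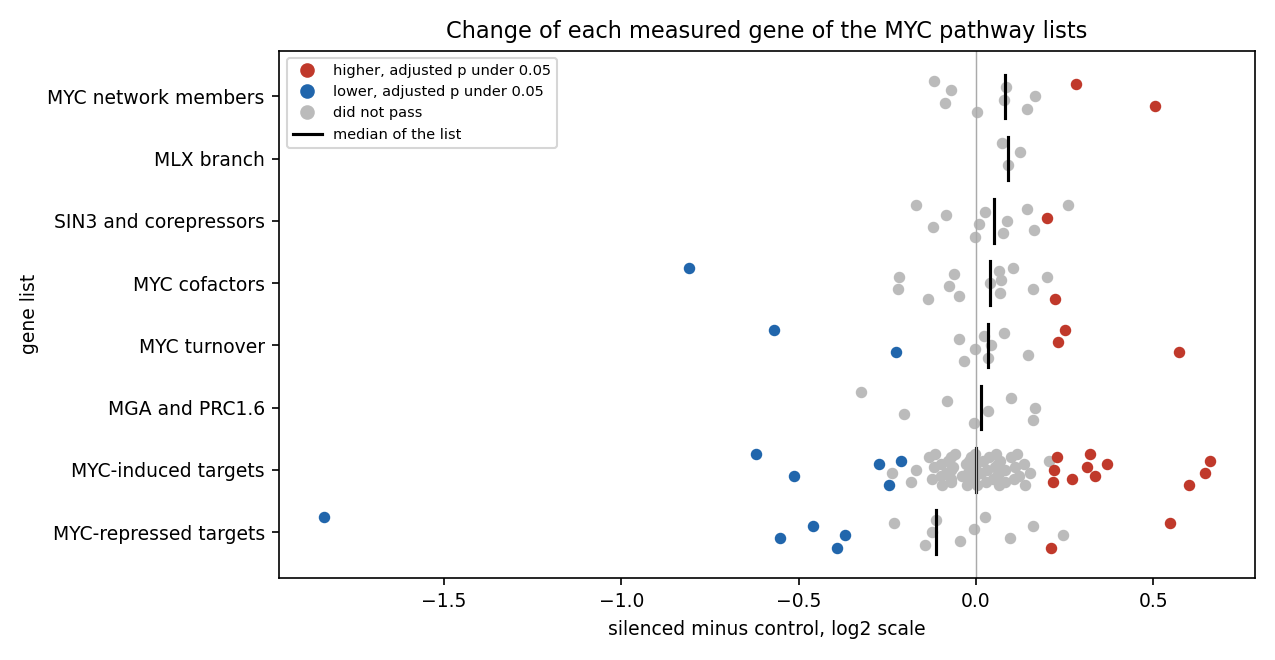
Silenced minus control difference on the log2 scale (horizontal axis) of each measured gene in the network and in the 7 lists of its pathway. Red and blue mark genes higher and lower at an adjusted p under 0.05, grey the others, and black bars the list medians; called genes of the MYC-induced targets lie on both sides of 0, and the point at -1.84 is TXNIP.

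Genes known to be induced by MYC did not move in one direction. Of 72 measured targets 11 rose, 5 fell and 56 did not pass, and the median of all 72 was 0.0015. Among all genes 7.14% were higher and 6.19% lower, with a median of -0.0058. RCC1, the nucleotide exchange factor of the GTPase RAN, rose by 0.66, from -0.299, -0.168 and -0.25 to 0.448, 0.426 and 0.394 (SE 0.057, limma adjusted p = 0.00012). TFRC, the transferrin receptor, rose by 0.65 with all 3 probe sets called, and EIF2S1, a subunit of a translation initiation factor, by 0.60 with 3 of 5 called. SLC7A5, a transporter of large neutral amino acids, fell by 0.62, from 0.517, 0.592 and 0.619 to -0.043, -0.088 and 0 (SE 0.056, limma adjusted p = 0.00016). SHMT2, the mitochondrial enzyme that makes one-carbon units from serine, fell by 0.51 with all 4 probe sets called. SLC1A5, a glutamine transporter, fell by 0.27 (limma adjusted p = 0.014). Leaving out control replicate 2, control replicate 3 or silenced replicate 2 ended that call (-0.272 to -0.243), as did the most variable probe set (-0.277, adjusted p = 0.076). The count of 16 called targets was 9 without control replicate 2 or 3 and 10 without silenced replicate 1 or 2.

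Of 17 genes known to be repressed by MYC 5 were lower, 2 higher and 10 did not pass, with a median change of -0.11. Among all genes 6.19% were lower and 7.14% higher, with a median of -0.0058. The list was chosen with earlier results of these data known. TXNIP, which encodes a thioredoxin-binding protein and is also a known target of MLXIP with MLX, had 1.72, 1.86 and 1.87 in control and -0.095, 0.026 and 0.006 in silenced arrays. That is a 3.58-fold fall, the largest of the pathway lists. DDIT3, a stress-induced transcription factor, fell by 0.55 and CCND1, which encodes cyclin D1, fell by 0.46 on the log2 scale, each with all of its probe sets called. COL1A2, a collagen chain gene, rose by 0.55 with 5 of 6 probe sets called (limma adjusted p = 0.002). GATA4, a liver and heart transcription factor, rose by 0.21 (limma adjusted p = 0.045), but 0 of its 3 probe sets passed alone. Its call was lost in 12 of 15 alternatives, among them each fit without 1 array (0.175 to 0.24).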

How the data were processed

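The deposited table holds log2 values made by the authors with RMA (no version is given), per the submitters' processing notes. The log base is RMA's usual one, and the centring of each probe set was worked out from the values and is not stated. Of the 49293 probe sets tested, after 102 control probe sets were left out, 80.6% held an exact 0 on at least 1 array, among them 34 of the 41 network probe sets. Symbols came from the platform annotation. Of the probe sets tested, 44988 had 1 symbol, 1832 several and 2473 none here, and 2 with the symbol of MXD3 and a second gene were left out of MXD3.

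Probe sets with a single symbol were averaged per gene. Group differences were fitted by lmFit and eBayes of limma 3.58.1, under R 4.3.3, with group as the only term, over all 18132 genes, and over all probe sets, with Benjamini-Hochberg adjustment. A change was called at an adjusted p under 0.05. The script was tested on simulated data. The number of arrays, 3 in each group, limits the precision. Alternatives were other scalings, weights and variance estimates, other probe set summaries, tied probe sets left out (an exact 0 on 2 or more arrays), a replicate block, and each array left out. The members and lists were chosen with earlier results of these data known, and no list was tested as a set. Named genes were the 10 members, KCNN4, the 3 genes nearest to MYC, and in each pathway list all called genes up to 6, otherwise the 3 largest rises and 3 largest falls. MLX branch genes, YAF2, CBX3, RYBP, PCGF6 and LYZ were added after their values were seen.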

Additional observations from a re-analysis of the deposited data

How the results depend on the processing

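The direction of MXD4, MYC, MYCN, MAX, MXD1, MXI1, MNT and MGA was the same in all 15 alternatives, and MXD4 passed in each. The robust variance estimate and the replicate block leave the change of every gene as it was, so they could not turn a direction. For MYC, with 1 probe set, the probe set summaries and the tie filter could not either. MYC passed in 10. MYCL was reversed with equal array means (-0.00299), tied probe sets left out, the most variable or specific probe sets (-0.018 each) and array weights (-0.016), and, with 1 array left out, ran from -0.0188 to 0.0308. MXD3 was reversed with the most variable and with specific probe sets (0.0845 each). KCNN4 was reversed with quantile normalization (0.00141) and the most variable probe set (0.021), and ran from -0.0445 to 0.0548 with 1 array left out, none of these values being called. The cause of these turns was not tested.

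The replicate numbers did not pair the arrays. Deviations of same-numbered arrays correlated at -0.096, -0.0694 and -0.0397 over genes, and 0 of 6 arrays correlated best with their own number. With the replicate block 2065 genes were called in place of 2418, and 2 network genes as before. The block ended the calls of SIN3B, RUVBL1, FBXW7, GSK3B, SET and GATA4 and of the probe sets 11745021_a_at (MYC), 11730498_s_at (MXI1) and 11725748_a_at (MXD3), with adjusted p-values from 0.053 to 0.10. Lower network probe sets were 0 with the block, and 2 with tied probe sets left out or with array weights. With the block, called genes were 0 for SIN3 and corepressors, 1 for cofactors and 2 for turnover. The SIN3 list had 2 with the most variable and 0 with specific probe sets, and the cofactors had 1 with the most variable probe set. The MGA complex had 2 with quantile normalization or array weights and 1 with specific probe sets. MYC-induced targets had 10 with the most variable probe set.

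With 1 array left out in turn, called probe sets ran from 3252 to 4592 in all, from 1765 to 2314 higher and from 1417 to 2278 lower, and lower genes from 736 to 1167. Called network genes ran from 1 to 2, higher network probe sets from 4 to 5 and lower ones from 0 to 2. Called genes ran from 0 to 1 for SIN3 and corepressors, from 1 to 2 for cofactors, from 2 to 4 for turnover and from 9 to 16 for MYC-induced targets. Fewer arrays enter each of those fits.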

Other observations

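Besides the 41 probe sets of the network, 2 probe sets, 11724089_a_at and 11756309_x_at, carry the symbol of MXD3 together with that of a second gene. They cannot be credited to MXD3. Their silenced minus control differences were 0.05 each on the log2 scale, with limma adjusted p-values of 0.77 and 0.68, while 11725748_a_at, which carries MXD3 alone, was lower.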
